A study of Mus musculus with 8 samples.

Results

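The Toll-like receptors TLR1 to TLR9 and their co-receptor CD14 were followed at the transcript level in mouse wound skin. The members are the 10 genes of these names, Tlr1, Tlr2, Tlr3, Tlr4, Tlr5, Tlr6, Tlr7, Tlr8, Tlr9 and Cd14, chosen by gene symbol among the 18540 genes of the deposited count table. All 10 had enough reads to be tested. Bulk RNA sequencing was run on 4 control wounds (control-1, -2, -3 and -5) and on 4 wounds treated for 15 days (Z1C2Z-1, -2, -4 and -5). Z1C2Z is a nanocomposite in which zinc peroxide and cerium dioxide are carried by the zeolitic framework ZIF-8, made with the higher cerium-to-zinc ratio. It was injected around full-thickness wounds of the back at 100 μg/kg, and control wounds received phosphate-buffered saline. The labels give the titles con and shiyan with a number, and these were matched to the control and Z1C2Z samples of the same numbers. The study used C57BL mice and diabetic db/db mice, each with a pair of wounds. Which of these strains the sequenced skin came from, its age, and whether any samples shared a mouse are not given in the sources used here, so the p-values measure the spread between these samples, which may be partly technical.

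Toll-like receptors are membrane proteins that recognise conserved microbial molecules and products of damaged tissue. TLR1, TLR2, TLR4, TLR5 and TLR6 sit mainly at the cell surface, whereas TLR3, TLR7, TLR8 and TLR9 read nucleic acids inside endosomes. Most signal through the adaptor MyD88 to NF-kappa B and the genes of inflammation, while TLR3 uses TRIF, which also leads to interferon genes, and TLR4 uses both. CD14 hands lipopolysaccharide to the complex of TLR4 with MD-2 and also assists other receptors. In skin these genes are carried largely by macrophages, neutrophils, dendritic cells and keratinocytes. Mouse TLR8 responds poorly to several ligands of the human receptor.

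The promoters were read to show which members carry the letters of the pathway's own factor. Windows from 250 bases before to 50 after the start site were held in RefSeq (GRCm38.p6) for 7 of the 10 members, with 9 promoters in all. The promoters of Tlr4, Tlr7 and Cd14 were not analysed here. Both strands were searched for the letters GGGNNNTTC of a kappa B motif, the binding motif of NF-kappa B, which 14.0% of the 32851 promoters of the table hold. Of the 7 members, Tlr2, Tlr3 and Tlr6 had a match. Each is printed 5′ to 3′ on the gene's strand with 10 bases on either side and the matched letters in capitals.
Tlr2, chr3:83841763-83841791, minus strand, 173 bases before the start: taggacacctGGGGAATTCccacacggag
Tlr2, chr3:83841621-83841649, minus strand, 31 bases before the start: gctggcgaccGGGAAGTTCggggccctga
Tlr3, chr8:45410573-45410601, minus strand, 211 bases before the start: agttgtttctGGGAGTTTCctgcttttga
Tlr6, chr5:64960129-64960157, minus strand, 99 bases before the start: tttatacacgGGGTAATTCcaacgagtac
The letters TTCNNTTTC of an interferon-stimulated response element, in 8.56% of all promoters, were matched in Tlr6 and Tlr8, and the Tlr8 match is shown because Tlr8 was among the separated genes.
Tlr8, chrX:167264378-167264406, minus strand, 67 bases before the start: ttcctctgaaTTCAGTTTCgaaattttta
The letters GAGGAAGT of the myeloid factor PU.1, in 3.20% of promoters, were matched in Tlr1 and Tlr9, and TGANTCA of AP-1, in 7.81%, in Tlr9. None of these 4 motifs was matched in the window of Tlr5. A match is a description of letters, not a proven site.

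Cd14 and 4 receptors, Tlr2, Tlr4, Tlr5 and Tlr8, were lower in each Z1C2Z sample than in any control. The remaining receptors, Tlr1, Tlr3, Tlr6, Tlr7 and Tlr9, overlapped between the groups. Separation in this direction was seen in 8.82% of the 15147 genes tested and in 5 of the 10 members, but the adjusted test called none. These 5 were alike over the 8 samples (Pearson r of log2 CPM from 0.838 to 0.983 between pairs), so they are not 5 independent cases. With edgeR (quasi-likelihood, p adjusted by Benjamini-Hochberg over all tested genes), 0 of 10 members passed an adjusted p of 0.05 as lower (background 3.85%) and 0 of 10 as higher (background 4.28%). At an unadjusted p under 0.05 the same 5 genes were lower, where the background is 15.2%. DESeq2 called these 5 as lower, with a background of 9.05%. The median log2 fold change of the 10 genes was -0.64, beside 0.0086 over all genes tested, and 9 of the 10 were under 0. Of the 3 genes with a kappa B match in the promoter window, Tlr2 was separated and Tlr3 and Tlr6 were not, while Tlr5 and Tlr8 were separated without such a match. Levels are given as CPM, the read counts of a gene scaled to library size after correction by the trimmed mean of M-values.

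**Figure D1:**
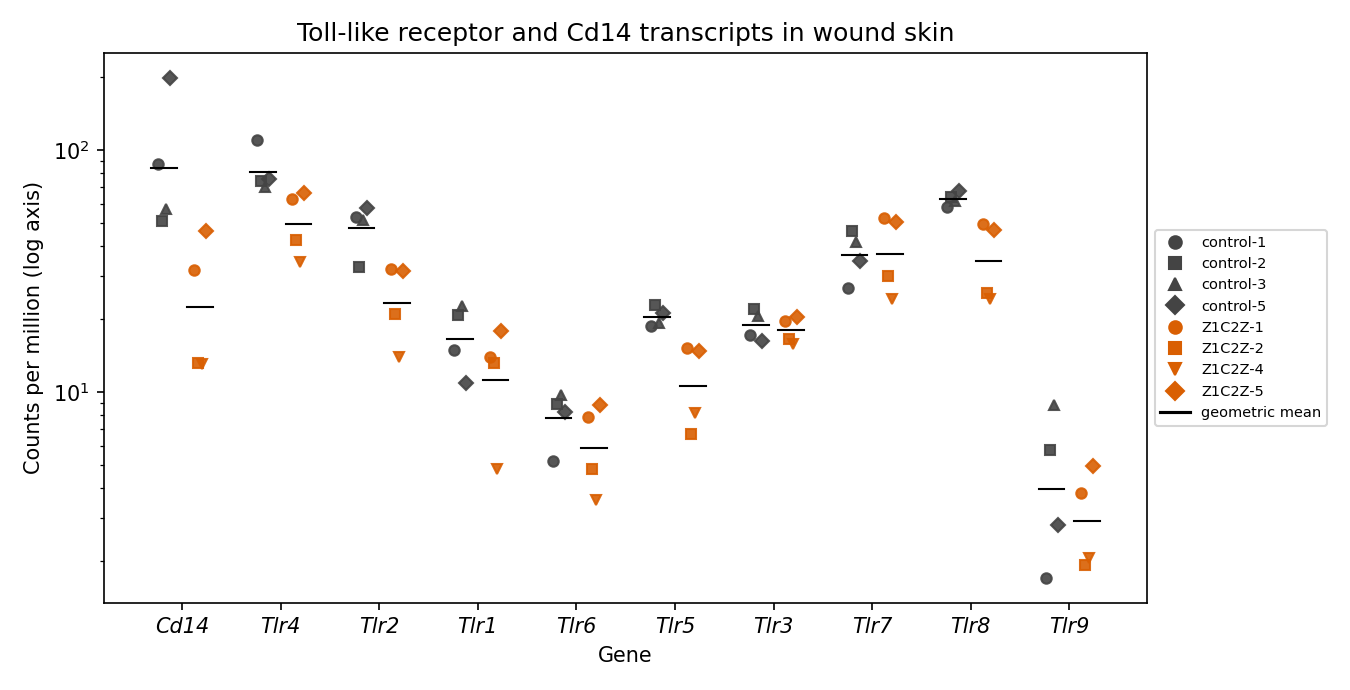
CPM (log axis) of each gene in the 4 control samples (grey) and the 4 Z1C2Z samples (orange), with the geometric mean of each group as a bar. Every orange point of Cd14, Tlr4, Tlr2, Tlr5 and Tlr8 lies below the grey points of that gene. The gap is narrow for Tlr2 (32.1 against 32.9), Tlr4 (66.6 against 70.5) and Cd14 (46 against 51). Cd14 has a wide spread, with control-5 at 198 CPM.

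Cd14 showed the widest difference. Its level was 87.4, 51, 56.7 and 198 CPM in control-1, -2, -3 and -5, and 31.8, 13.2, 13.1 and 46 CPM in Z1C2Z-1, -2, -4 and -5. The lowest control lay just above the highest treated sample, and control-5 was far above the other controls. The means were 98.2 ± 68.3 and 26.0 ± 16.0 CPM (SD, n = 4 each), 3.78-fold lower under Z1C2Z. The log2 fold change was -1.92 (SE 0.55, 95% interval -3.15 to -0.69), with an adjusted p of 0.0609 in edgeR and 0.0189 in DESeq2. Without control-5 the log2 fold change was -1.32, with an edgeR adjusted p of 0.156. Both control-1 and control-5 were also the high controls of Cxcl1, Il6, Csf3 and Ptgs2, given with the target genes, and without both samples Cd14 stood at -1.06 (adjusted p = 0.242). The part of these samples in the result was not tested further.

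Tlr4, the receptor for lipopolysaccharide, was measured at 110, 74.2, 70.5 and 76.1 CPM in the controls and at 62.4, 42.4, 34.3 and 66.6 CPM in the treated samples. The groups did not overlap, and control-1 lay far above the other 3 controls. The means were 82.8 ± 18.5 and 51.4 ± 15.5 CPM (SD, n = 4 each), and the log2 fold change was -0.69 (SE 0.23, 95% interval -1.20 to -0.17). The adjusted p was 0.0917 in edgeR and 0.0268 in DESeq2. Leaving out control-1 gave -0.52, with an edgeR adjusted p of 0.141. Cd14 and Tlr4 were thus both lower, but by unequal amounts, and their CPM ratio ran from 0.687 to 2.6 in controls and from 0.311 to 0.691 in treated samples, overlapping between the groups.

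Tlr2, which senses bacterial lipoproteins as a dimer with TLR1 or TLR6, stood at 52.7, 32.9, 51.5 and 57.3 CPM in the controls and at 32.1, 20.9, 13.9 and 31.6 CPM in the treated samples. Control-2 set the narrow margin between the groups, and with total counts as the only scaling control-2 and Z1C2Z-1 overlapped. The means were 48.6 ± 10.8 and 24.6 ± 8.79 CPM (SD, n = 4 each), 1.97-fold lower. The log2 fold change was -0.98 (SE 0.27, 95% interval -1.60 to -0.37), with an adjusted p of 0.0575 in edgeR, the smallest of the 10, and 0.00458 in DESeq2.

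The dimer partners of TLR2 gave overlapping groups. Tlr1 had 14.9, 20.7, 22.6 and 10.9 CPM in the controls and 14, 13.2, 4.8 and 17.9 CPM in the treated samples. Its log2 fold change was -0.47 (95% interval -1.31 to 0.36, edgeR adjusted p = 0.433). Tlr6 had 5.19, 8.94, 9.75 and 8.25 CPM in the controls and 7.84, 4.79, 3.59 and 8.84 CPM in the treated samples. The log2 fold change of Tlr6 was -0.36 (95% interval -1.05 to 0.33, adjusted p = 0.469). These intervals include both no difference and one as large as the estimate for Tlr2. Tlr1 and Tlr6 are neighbouring, closely related genes, and 13.6% of the distinct 50-base words of Tlr1 transcripts (GENCODE M21) also occur in Tlr6, so reads could be exchanged between them depending on how they were counted. Against transcripts of any other gene the share was 17.1% for Tlr1 (307 genes), 12.3% for Tlr6, 5.3% for Tlr3 and 0.234% for Tlr4. For Tlr2, Tlr5, Tlr7, Tlr8, Tlr9 and Cd14 it was 0.

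Tlr5, the receptor for bacterial flagellin, was steady in the controls at 18.7, 22.9, 19.3 and 21.1 CPM. In the treated samples it was 15.2, 6.68, 8.19 and 14.8 CPM. Z1C2Z-2 and Z1C2Z-4 were lower than the other treated samples, and all 4 lay under the controls. The means were 20.5 ± 1.87 and 11.2 ± 4.41 CPM (SD, n = 4 each), and the log2 fold change was -0.87 (SE 0.26, 95% interval -1.45 to -0.29). The adjusted p was 0.0675 in edgeR and 0.00968 in DESeq2.

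Among the endosomal receptors only Tlr8, one of the sensors of single-stranded RNA, was separated. It was measured at 57.9, 63.9, 61.6 and 67.7 CPM in the controls and at 49.6, 25.5, 24.3 and 46.8 CPM in the treated samples. As for Tlr5, the controls were close together and the treated samples fell into a higher pair, Z1C2Z-1 and -5, and a lower pair, Z1C2Z-2 and -4. The means were 62.8 ± 4.10 and 36.6 ± 13.5 CPM (SD, n = 4 each), and the log2 fold change was -0.78 (SE 0.23, 95% interval -1.31 to -0.25). The adjusted p was 0.0708 in edgeR and 0.0122 in DESeq2.

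Tlr7, the other single-stranded RNA sensor and the neighbour of Tlr8 on the X chromosome, gave a different picture. It had 26.8, 46.1, 41.8 and 34.8 CPM in the controls and 52.3, 30.1, 24.2 and 50.3 CPM in the treated samples, so that the treated samples held both the highest and the lowest values. The log2 fold change was 0.067 (95% interval -0.53 to 0.67, edgeR adjusted p = 0.891). The ratio of Tlr8 to Tlr7 CPM, which is not corrected for length and is read only between samples, was 2.16, 1.39, 1.47 and 1.94 in the controls and 0.949, 0.849, 1 and 0.931 in the treated samples. This pair was picked after its values were seen, so the separation is given without a test.

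Tlr3, the sensor of double-stranded RNA, varied little. It had 17.2, 21.9, 20.6 and 16.2 CPM in the controls and 19.7, 16.6, 15.8 and 20.4 CPM in the treated samples. The log2 fold change was -0.065, and its 95% interval, -0.37 to 0.24, was the narrowest of the 10 (edgeR adjusted p = 0.785). An antisense gene, Gm45542, overlaps 381 of the 5207 exon bases of Tlr3 in GENCODE M21, and the strand setting of the counting is not given in the sources used here. Tlr9, the sensor of unmethylated CpG DNA, was the least abundant member, at 1.71, 5.74, 8.87 and 2.82 CPM in the controls and 3.81, 1.92, 2.06 and 4.94 CPM in the treated samples. Those levels rest on 48 to 322 counts per sample, and the log2 fold change of -0.59 had the wide interval of -1.74 to 0.55 (adjusted p = 0.475).

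**Figure D2:**
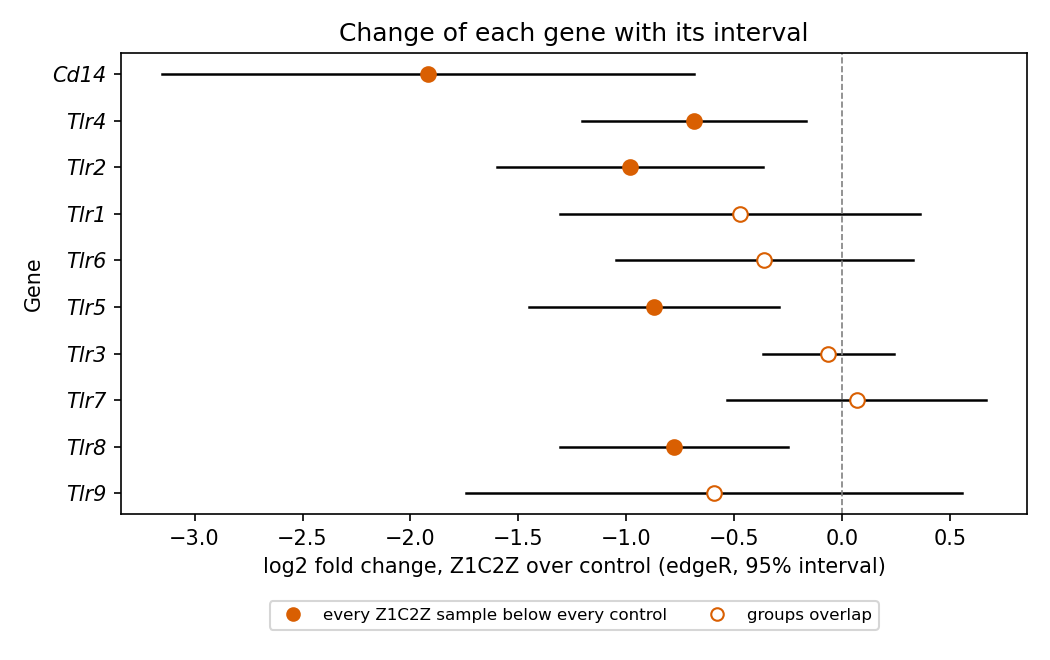
Log2 fold change of each gene, Z1C2Z over control, with its 95% interval from edgeR. Filled points are the 5 genes whose treated samples all lay below the controls, and their intervals lie under 0, whereas the intervals of Tlr1, Tlr6, Tlr3, Tlr7 and Tlr9 cross 0.

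For the 5 separated genes the exact permutation test of mean log2 CPM, two-sided, gave p = 0.0286 each. That is the smallest value that the 70 arrangements of 4 against 4 samples can give. Any gene without overlap gets this value, so it restates the separation and adds no support to it. For the other 5 it ran from 0.2 for Tlr6 to 0.971 for Tlr7. Leaving out Z1C2Z-5 brought Tlr2, Tlr5, Tlr8 and Cd14 under the threshold in edgeR, with adjusted p of 0.0428, 0.0412, 0.0445 and 0.0345, where 5.62% of genes were called lower. Leaving out any other single sample called no member. The edgeR adjusted p of these genes then reached up to 0.16, 0.171, 0.173 and 0.16.

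The order of the genes was set out per length of exon sequence, as RPKM, the CPM divided by the exon length in kilobases (GENCODE M21). In the controls Cd14 was first at 56.7 ± 39.4 RPKM, followed by Tlr8 (17.5 ± 1.14), Tlr2 (16.1 ± 3.57) and Tlr4 (14.9 ± 3.33), whose sample ranges overlapped from one to the next. Tlr7 came next at 9.16 ± 2.07, then Tlr1, Tlr5 and Tlr3 between 5.16 and 3.64 RPKM, and Tlr6 (2.15 ± 0.53) and Tlr9 (1.38 ± 0.92) came last. In the controls Cd14 was separated from Tlr8, Tlr4 from Tlr7, and Tlr3 from Tlr6, while every other pair of neighbours overlapped. In the Z1C2Z samples Cd14 was still first at 7.54 to 26.5 RPKM, but each gene overlapped with the next one in the order. Tlr8 (10.2 ± 3.77), Tlr7 (9.61 ± 3.48), Tlr4 (9.25 ± 2.80) and Tlr2 (8.17 ± 2.92) lay close together there, and Tlr3 (3.48 ± 0.43) stood above Tlr5 (2.34 ± 0.92).

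The treated samples did not behave as one. Z1C2Z-2 and Z1C2Z-4 were the lower pair of the treated samples for 10 of the 10 genes, a pattern that 31.7% of all genes tested had. Z1C2Z-4 was the lowest of the 8 samples for 8 genes, Z1C2Z-2 was the lowest for Tlr5 and control-1 for Tlr9. Over the 8 samples the log2 CPM of Tlr5 and Tlr8 was the most alike within the family (Pearson r = 0.983), followed by Tlr2 and Cd14 (0.916), Tlr2 and Tlr8 (0.910) and Tlr2 and Tlr4 (0.901). The least alike pair was Tlr3 and Cd14 (0.127). These r are descriptions over samples that share libraries and the treatment difference. Without Z1C2Z-2 and Z1C2Z-4 the median log2 fold change of the 10 genes was -0.25 and no gene was called. Without them the 5 separated genes had log2 fold changes between -1.34 for Cd14 and -0.36 for Tlr4.

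Among all tested genes outside the family, those with the most similar pattern were found for each member by Pearson r of log2 CPM over the 8 samples. Slc16a3 (0.996) and Gna13 (0.988) were among the nearest to Cd14. Nrros (0.988), Tm6sf1 (0.975) and Tifa (0.972) were nearest to Tlr2, and Dab2 (0.994), Zfp655 (0.986) and Hcfc2 (0.985) to Tlr4. Rap1gds1 was first for both Tlr5 and Tlr8 (0.994 each), followed by Atp11b and Il1rl2 for Tlr5 and by Slc43a3 and Atp2b1 for Tlr8. Zfp644 was first for Tlr3 (0.994), Acod1 for Tlr6 (0.986), Gnpda1 for Tlr7 (0.979), Gm5431 for Tlr9 (0.989) and Ccdc159 for Tlr1 (0.975). These genes were picked as the highest of all 15147 tested, so a high r follows from the choice.

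Marker genes of the cell types that the skin could hold were measured in the same samples. In bulk tissue fewer cells of a type and less RNA per cell cannot be told apart. Of 17 macrophage and monocyte markers, led in abundance by Lyz2, 16 were estimated under 0 in log2 fold change, with 0 called in edgeR (5 at an unadjusted p under 0.05), and their summed level was 3261 to 3644 CPM in controls and 1999 to 3334 CPM in treated samples. Of 12 neutrophil markers, 9 could be tested and 0 were called (4 at an unadjusted p under 0.05), with sums of 578 to 1512 and 171 to 663 CPM. The neutrophil markers that could not be tested, Ly6g, Elane and Mpo, had at most 19 counts in any sample. Of the tested markers, Csf3r had 208 to 1899 counts per sample and S100a9 had 3536 to 31723. Ngp (0 to 172), Camp (0 to 20) and Ltf (1 to 109) had few. The log2 fold change was under 0 for 8 of these markers and 0.38 for Camp. S100a8 and S100a9 weigh most in the neutrophil sums, with 194 and 317 of the 578 CPM in control-1. Of 5 B cell markers only Cd79b could be tested, and dendritic, T cell and mast cell sums overlapped. Hair follicle markers were called higher in 10 of 12, with sums of 662 to 3878 CPM in controls and 4748 to 16006 CPM in treated samples. Skeletal muscle markers were called lower in 3 of 11, with sums of 3567 to 6551 and 2965 to 3355 CPM, and 2 of 5 fibroblast markers were called lower (5 at an unadjusted p under 0.05). Of 7 endothelial markers 0 were called in edgeR, but all 7 were estimated under 0 and 4 were lower at an unadjusted p under 0.05, with a median log2 fold change of -0.72 beside -0.37 for the macrophage and monocyte markers. Of 5 adipocyte markers 0 were called and 3 were lower at an unadjusted p under 0.05, and of 5 epidermal keratinocyte markers 0 were called and 0 were lower at that p. The fibroblast, endothelial, adipocyte and keratinocyte sums overlapped between the groups, and the part of these cell types in the members' values was not tested. The keratinocyte genes Krt10, Krt1 and Krt14, which define epidermis, were abundant, with a summed list level of at least 11426 CPM in each sample. Z1C2Z-2 and Z1C2Z-4 had both the highest hair follicle sums and the lowest macrophage sums. With the hair follicle level as a covariate the log2 fold change of Cd14 was 0.27 and that of Tlr4 0.055, and 0 genes of the table were called in edgeR (663 at an unadjusted p under 0.05). Tlr2, Tlr5 and Tlr8 stayed under 0 with that covariate, at -0.33, -0.36 and -0.27. With the skeletal muscle level as a covariate Tlr4 was -0.29 and Cd14 -1.47, and Tlr2, Tlr5 and Tlr8 were -0.88, -0.90 and -0.81. Neither the hair follicle nor the skeletal muscle sums overlapped between the groups. Their part in the result and that of the treatment therefore cannot be told apart.

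The members were therefore also set against the macrophage and monocyte markers, as log2 CPM of the gene minus the mean log2 CPM of the 17 markers in the same sample. On this scale Cd14 was -0.14, -0.97, -1.01 and 0.96 in the controls and -1.49, -2.44, -2.17 and -1.20 in the treated samples, without overlap. The difference in means for Cd14 was -1.53, with p = 0.0286 in the exact permutation test, two-sided. For Tlr2, Tlr5 and Tlr8 the differences were -0.66, -0.58 and -0.48, with exact p = 0.0571 each and overlapping groups. Tlr4 differed by -0.34 (exact p = 0.0857). Tlr7 and Tlr3 lay on the other side, by 0.39 (exact p = 0.0857) and 0.31 (exact p = 0.0571). Tlr1, Tlr6 and Tlr9 differed by -0.19, -0.035 and -0.054, with exact p of 0.571, 0.886 and 0.914. The p-values of these 10 comparisons are unadjusted. For Cd14 the p is again the smallest that 4 against 4 samples can give, and it restates the separation. The comparison describes how the estimates differ between transcripts and not a change per cell.

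**Figure D3:**
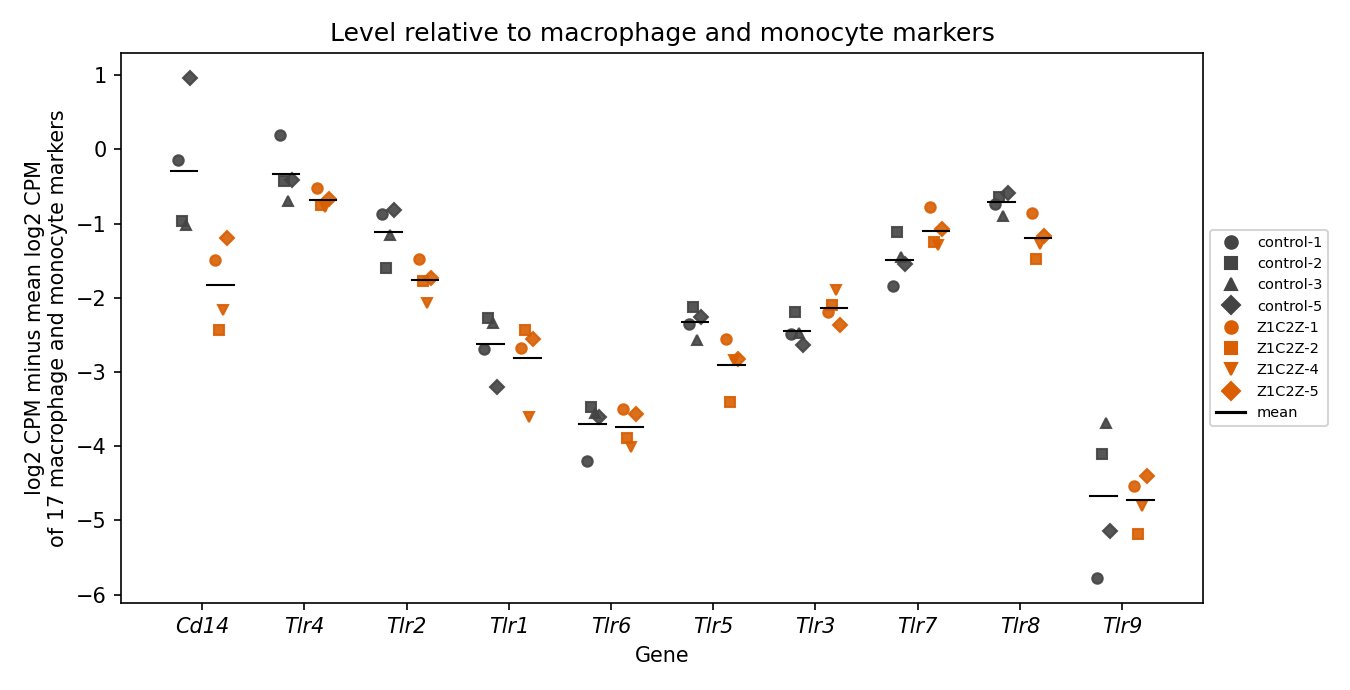
Level of each gene relative to 17 macrophage and monocyte markers, in log2 units, in the 4 control samples (grey) and the 4 Z1C2Z samples (orange), with group means as bars. Cd14 is the one gene whose groups stay apart, by -1.53, while Tlr7 and Tlr3 have the higher mean in the treated group.

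The wider pathway was described from lists of genes by role. Each count of genes called lower is to be read against the 3.85% of all tested genes that were called lower. A count of genes lower at an unadjusted p under 0.05 is to be read against 15.2%. The mouse has further receptors that humans lack or carry only as a pseudogene. Of these Tlr11 was higher in every treated sample, at 0.533, 0.749, 0.606 and 0.0563 CPM in the controls and 1.38, 1.74, 1.66 and 1.16 CPM in the treated samples, on 2 to 67 counts per sample. Its log2 fold change was 1.61 (SE 0.53, edgeR adjusted p = 0.0875), so it was not called, and 8.45% of all genes were separated upward. Tlr13, a sensor of bacterial ribosomal RNA, was far more abundant at 47.4 ± 15.2 CPM in controls and 34.9 ± 18.9 CPM in treated samples (SD, n = 4 each), with overlap and a log2 fold change of -0.44 (adjusted p = 0.501). Tlr12 had at most 49 counts in a sample.

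Of 8 accessory proteins and chaperones 0 were called in edgeR, and 1 was lower at an unadjusted p under 0.05. Ly96, which encodes MD-2, the lipopolysaccharide-binding partner of TLR4, stood at 11.5 ± 1.24 and 9.28 ± 0.77 CPM (SD, n = 4 each), and its log2 fold change was -0.31 (adjusted p = 0.14). Unc93b1, the chaperone that brings the nucleic acid receptors to endosomes, stood at 60.3 ± 11.3 and 46.4 ± 11.4 CPM, a log2 fold change of -0.38 (adjusted p = 0.242). The members of the lipopolysaccharide receptor therefore differed in size of estimate, from -1.92 for Cd14 and -0.69 for Tlr4 to -0.31 for Ly96.

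Of 8 endogenous ligands 1 was called lower, and 6 were lower at an unadjusted p under 0.05 in edgeR. Tnc, the matrix protein tenascin-C, fell from 1270, 2500, 2040 and 2920 CPM in the controls to 535, 296, 275 and 843 CPM in the treated samples, a log2 fold change of -2.16 (SE 0.40, edgeR adjusted p = 0.03). S100a8 and S100a9, which are also among the neutrophil markers, had log2 fold changes of -1.27 and -1.36 with adjusted p of 0.0804 and 0.0795.

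Of the adaptors and kinases 19 of 20 could be tested and 1 was called lower, a share near the 3.85% of all genes. At an unadjusted p under 0.05 in edgeR 4 were lower and 1 was higher. Myd88, the adaptor shared by most Toll-like receptors and by interleukin-1 receptors, fell from 56.7, 51.3, 49.1 and 57.6 CPM to 38.8, 35.9, 37.9 and 46.7 CPM. Its log2 fold change was -0.43 (SE 0.10, edgeR adjusted p = 0.0419). Of 6 transcription factors 3 were lower at an unadjusted p under 0.05 in edgeR and 2 were called lower, both subunits of NF-kappa B. Nfkb1 fell by 0.57 on the log2 scale (adjusted p = 0.047) and Rela by 0.46 (adjusted p = 0.0498).

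Of 12 inhibitors of the pathway 3 were called lower and 0 higher, and 9 were lower at an unadjusted p under 0.05 in edgeR. Il1rl1, the interleukin-33 receptor that also restrains TLR signalling, fell by 2.63 on the log2 scale (SE 0.29, edgeR adjusted p = 0.0232), from 154 to 315 CPM in controls to 24.5 to 46.7 CPM in treated samples. Dusp1, a phosphatase of MAP kinases, fell by 1.68 (adjusted p = 0.0299). Irak3, which encodes the inhibitory kinase homologue IRAK-M, was 52.6 to 54.4 CPM in the controls and 27.4 to 46.5 CPM in the treated samples and fell by 0.60 (adjusted p = 0.0449). Members that drive the pathway and members that restrain it were therefore both among the called genes.

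Of 16 NF-kappa B target genes 5 were called lower and 0 higher, and 10 were lower at an unadjusted p under 0.05 in edgeR. Icam1, a leukocyte adhesion molecule, fell from 41, 36.4, 45.4 and 54.6 CPM to 22.8, 23.6, 23.3 and 29.2 CPM, a log2 fold change of -0.84 (SE 0.14, edgeR adjusted p = 0.0299). Cxcl1, a chemokine for neutrophils, was 257, 6.22, 11.1 and 309 CPM in the controls and 2.25 to 3.36 CPM in the treated samples (log2 fold change -5.72, adjusted p = 0.0337). Il6 was 174, 5.19, 7.49 and 150 CPM in the controls and 0.728 to 3.47 CPM in the treated samples (log2 fold change -5.51, adjusted p = 0.0356). Csf3 and Ptgs2 had the same high samples, control-1 and control-5, and fell by 4.32 and 4.22 on the log2 scale (adjusted p = 0.0484 and 0.0494). Without control-1 and control-5, a setting chosen after these values were seen, the log2 fold changes of Cxcl1, Il6, Csf3 and Ptgs2 were -1.65, -1.78, -1.30 and -1.09. Other genes called in the pathway lists moved less on the log2 scale in that setting, such as Tnc (-2.22), Irak3 (-0.61), Icam1 (-0.73) and Rela (-0.37). Among these other genes, Dusp1 went from -1.68 to -1.15 and Nfkb1 from -0.57 to -0.37. Only 9 genes of the whole table were called lower and 4 higher there, Il1rl1 (-2.31, edgeR adjusted p = 0.0459) among them. Of 9 interferon arm target genes 7 were in the table and 0 of these were called in edgeR, with 0 at an unadjusted p under 0.05. All 7 were nevertheless estimated under 0, with a median log2 fold change of -0.60. Rsad2 (-0.77, adjusted p = 0.232) and Ifit1 (-0.76, adjusted p = 0.242) had the smallest p. The number of calls depended on which samples were kept. When Z1C2Z-4, Z1C2Z-2, Z1C2Z-1 or control-5 was taken out, one at a time, edgeR called 0 genes of the whole table, with 3100, 3137, 4208 and 3223 at an unadjusted p under 0.05. It called 868 lower and 656 higher without control-1, 98 and 25 without control-2, 464 and 541 without control-3, and 859 and 886 without Z1C2Z-5.

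**Figure D4:**
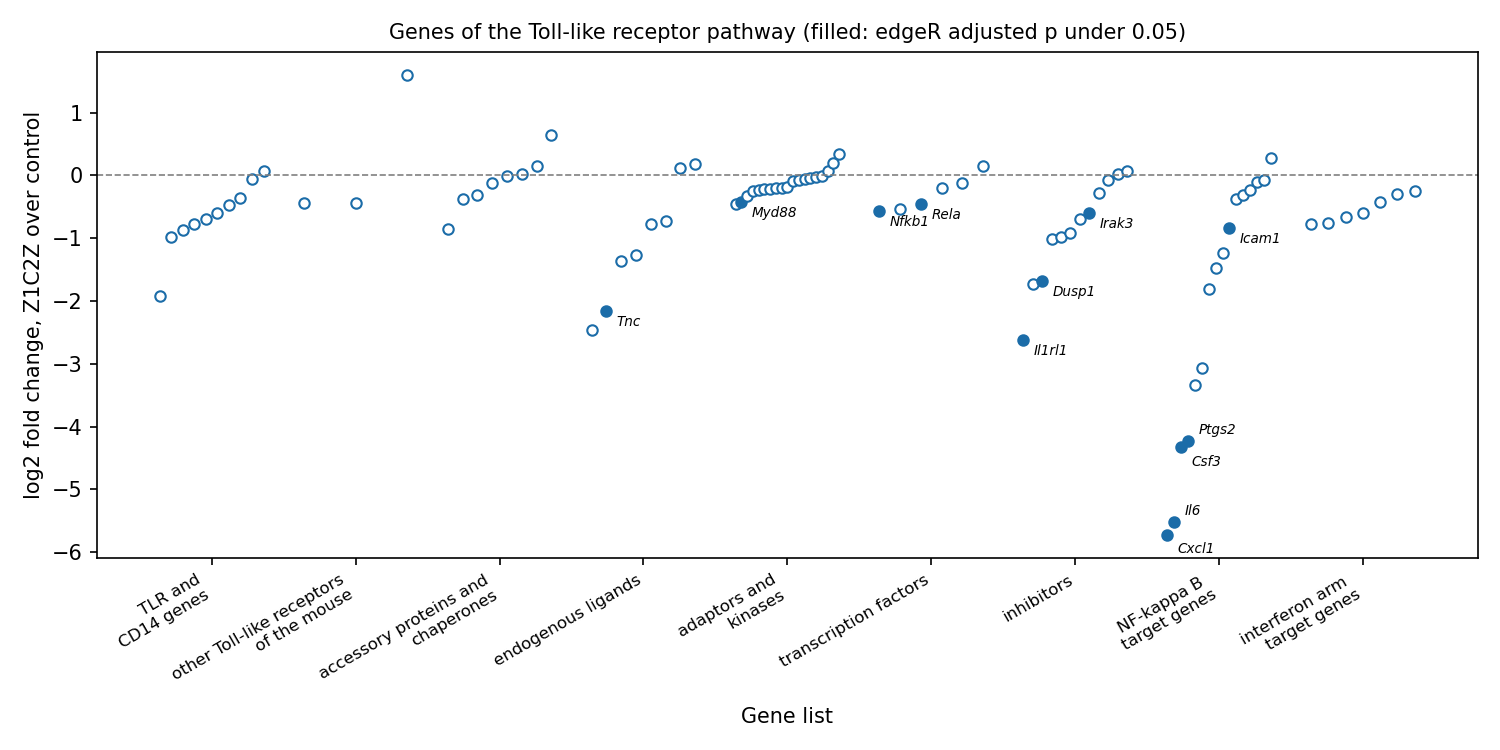
Log2 fold change, Z1C2Z over control, of the tested genes in each list of the Toll-like receptor pathway, ordered within a list, with called genes filled and named. The 12 filled points all lie under 0, from -0.43 for Myd88 to -5.72 for Cxcl1, and none of the 10 receptor and Cd14 genes is filled.

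Sequencing depth was similar in the groups, at 28856790 to 38249438 counts per sample in the controls and 33966536 to 38974888 in the treated samples, with scaling factors between 0.928 and 1.044. All pairs of libraries within a group differed by far more than sampling noise. At this depth each member except Tlr9 had at least 143 counts in each sample, so counting error was small beside the spread between samples.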

How the data were processed

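For wound skin RNA depleted of ribosomal RNA, the authors deposited a table of raw read counts by gene. The methods name the RNA Easy Fast kit and the labels Trizol. The aligner, counting program, genome build, annotation and strand setting are not given in the sources used here, and they decide how reads shared by Tlr1 and Tlr6 were assigned. The table held 0 unused columns of per-sample values. From these counts, genes were kept by filterByExpr (15147), scaled by TMM and tested in R 4.3.3 with edgeR 4.0.16 (quasi-likelihood, no covariates, Benjamini-Hochberg over all tested genes, threshold 0.05). Log2 CPM used a prior count of 2, and exact permutation tests ran over 70 arrangements. DESeq2 1.42.0 and the settings of the closing section were alternatives. Exon lengths came from GENCODE M21 and promoters from RefSeq. Of the pathway lists, the called genes (at most 6) or else the 2 with the smallest p are named, together with the 3 genes most like each member. One gene selected this way is not reported here. S100a8, S100a9, Csf3r, Tlr12, Gm45542 and the low neutrophil markers fall outside this rule and were chosen after their values were seen. The members and lists were chosen with earlier results of these data known. The script was tested on simulated counts.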

Additional observations from a re-analysis of the deposited data

Results flagged for a closer look

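The members and the summed cell type marker lists, each in controls and in treated samples, gave 44 groups of 4 samples. Of these, 2 held a sample far from the other 3 by Dixon's test. Chance flags about 1 in 20 groups, which is near 2 of 44. Tlr4 in control-1 was 110 CPM (gap over range 0.861), against 70.5 to 76.1 CPM in the other controls. The summed adipocyte markers in control-2 were 466 CPM (gap over range 0.845), below the other controls at 543 to 558 CPM.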

How the results depend on the processing

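The count of 5 separated genes (8.82% of all genes) was 4 with total counts without TMM (5.33%) and, chosen after seeing the data, 9 without control-1 and control-5 (19.4%). It was 5 with RLE size factors and with DESeq2. The block and the covariates leave the levels as they are and leaving samples out can only add separation, so those settings do not test it. The 0 genes called lower became 5 with DESeq2 and 0 to 4 when 1 sample was left out, with 4 without Z1C2Z-5. No gene was called higher in any setting. Whether the sample numbers pair the samples could not be settled from these data. Correlations of same-numbered samples were -0.101, -0.0623 and 0.323. Of 6 samples 2 correlated best with their own number, control-5 and Z1C2Z-5. These few values cannot show whether samples shared a mouse. The replicate block rests on the 6 samples that share 3 numbers, because control-3 and Z1C2Z-4 have no partner and add nothing to that contrast. It called 2 genes lower in edgeR, Tlr2 (adjusted p = 0.0429) and Cd14 (0.00373). The median of -0.64 was -0.23 with the hair follicle covariate, -0.34 with the block, -0.88 with the muscle covariate, -0.25 without Z1C2Z-2 and Z1C2Z-4, and -0.86 to -0.49 with 1 sample left out. Over the whole table, 583 lower and 648 higher calls became 385 and 972 with total counts, which shift the median of all genes to 0.10, 1504 and 1239 with DESeq2, 253 and 301 with the block, 98 and 25 without control-2, and 9 and 4 without control-1 and control-5. The muscle covariate left 1 call and the hair covariate 0 (663 at an unadjusted p under 0.05). The sign turned for Tlr3 with total counts (0.024), the block (0.044), without control-2 (0.010, in a range of -0.13 to 0.010 with 1 sample left out) and without Z1C2Z-2 and Z1C2Z-4 (0.079), for Tlr6 without Z1C2Z-2 and Z1C2Z-4 (0.053), for Tlr9 with the block (0.15), and for Tlr4 (0.055) and Cd14 (0.27) with the hair covariate. For Tlr7 it turned with the muscle covariate (-0.32), without control-1 (-0.068), Z1C2Z-1 (-0.096) or Z1C2Z-5 (-0.079), in a range of -0.096 to 0.24 with 1 sample left out, and without control-1 and control-5 (-0.17). The cause was not tested. Of the other single-gene values 176 kept side and sign and 11 passed the threshold in addition. The depth limits Tlr9, Tlr11 and Tlr12 most.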
